A study of Mus musculus with 6 samples.

Results

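The subject is 39 imprinted genes, measured in entire mouse lung buds (6 samples) taken at E11.5, the stage at which the buds begin to branch. An imprinted gene is transcribed mainly from the copy inherited from 1 parent. The other copy is kept silent, usually through a control region that carries DNA methylation on only one of the parental chromosomes, and the silent copy tends to carry deacetylated histones. Most of these genes lie in clusters, and many act on fetal growth. The members come from a list of imprinted genes by name, with no measured value in the rule, but the list was drawn up with earlier results of these arrays known. Of the 39 genes, 34 had a probe set (called a probe here) that the platform annotation assigns to that gene alone, among 19938 such genes in all. H19 and Kcnq1ot1 were not analysed here, and neither were Mirg, Snrpn and Gnas, whose probes are shared with other genes.

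The DKO group (3 arrays) carried Shhcre together with floxed alleles of Hdac1 (Hdac1fl/fl) and Hdac2 (Hdac2 fl/fl), and the control group (3 arrays) carried Shhcre alone. The labels give a mixed background of C57BL/6 with 129X1 and 129S1 for all 6 samples. Shhcre expresses Cre recombinase from the Sonic hedgehog locus, which is active in the lung epithelium. Hdac1 and Hdac2 are histone deacetylases. The comparison asked which genes depend on both in the developing lung. Deletion is thus directed to the epithelium, while mesenchyme, vessels and blood in the same sample keep both genes. The labels do not say if embryos were pooled, and the p-values reflect only how far these samples differ from one another. An array reads both parental copies together, so a change in which copy is active cannot be seen unless the total changes.

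Values are the deposited log2 levels, changes are DKO minus control on that scale, and a gene was called when its limma p, adjusted by Benjamini-Hochberg over all 19938 genes, was under 0.05. The targeted gene Hdac1 read 11.20, 11.23 and 11.23 in DKO 1 to 3, against 11.48, 11.49 and 11.52 in control 1 to 3, a change of -0.28 (SE 0.05, adjusted p = 0.0193). That call was lost without control 1, 2 or 3, without DKO 1 or DKO 3 and with the replicate number as a block (adjusted p = 0.0507 to 0.112). Hdac2 read 11.74, 11.77 and 11.70 in DKO, against 11.83, 11.69 and 11.81 in control, a change of -0.04 (SE 0.06, adjusted p = 0.845). Whether either probe lies in a deleted exon was not determined. Of 15 markers of lung epithelium, 10 were called lower in DKO and 0 higher, with a median change of -0.46 and a mean log2 level of 9.27 to 9.42 in DKO, against 9.83 to 9.93 in control. The lowest changes were -2.37 for the surfactant gene Sftpc, -0.86 for the keratin gene Krt18, -0.69 for the forkhead factor Foxa1, -0.59 for Shh, -0.56 for the claudin gene Cldn6 and -0.56 for Krt8 (adjusted p = 0.000135 to 0.0118). The part of these markers in the members' values was not tested. In whole buds, fewer cells of a type and less RNA per cell cannot be told apart. The scatter of single arrays about their group average (SD over genes) was 0.0705 to 0.105 for the DKO arrays, against 0.0596 to 0.0645 for the control arrays.

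In the DKO buds most of the imprinted genes lay close to their control level, with 1 clear exception. Asb4, a maternally expressed gene of the Peg10-Sgce cluster, rose 1.46-fold. It was the 1 member called among 34 (2.94%), against 2.41% of all genes called in either direction, 1.03% higher and 1.38% lower. The members' share is therefore close to the background. Their median change was 0.03, against 0.00 over all genes, and the median size of the change was 0.08, against 0.06 over all genes. Before adjustment, 7 of the 34 (20.6%) had p under 0.05, against 12.8% of all genes. The DKO and control values did not overlap for 8 of the 34 (23.5%), of which Asb4, Peg10, Ndn and Plagl1 were higher and Nnat, Usp29, Tssc4 and Grb10 lower in DKO. The groups were apart in the same way for 18.8% of all genes, with DKO higher for 8.36% and lower for 10.4%.

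The intervals also show how large a difference in the array reading of whole buds could have been missed. They reflect the scatter between arrays, and how closely each probe follows its RNA was not measured. The members' levels ran from percentile 19.3 of all genes (Rasgrf1) to 99.8 (Igf2 and Mest). They do not bound a change within the epithelium alone, since the other cells of the bud add to each value. For 31 of the 34 members the 95% confidence interval of the change lay within 1.3-fold in either direction, the exceptions being Asb4, Nnat and Dcn. For 33 of 34 it lay within 1.5-fold, the exception being Asb4. Only Asb4 among the measured members had an estimate of at least 1.3-fold, a size reached by 347 genes, or 1.74%, of the whole table.

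**Figure D1:**
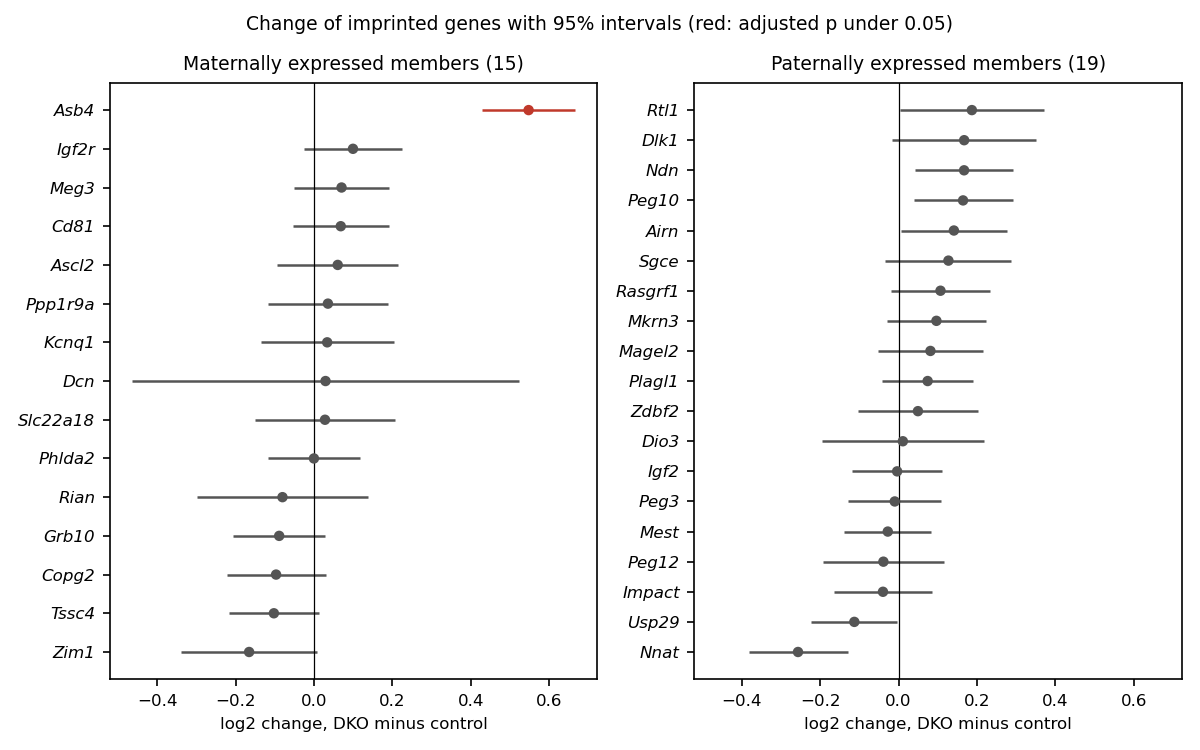
Change of each measured imprinted gene (log2, DKO minus control; points, with lines for the 95% confidence interval), split by the parental copy usually expressed. Of the 15 maternally expressed genes on the left, Asb4 alone is called (0.55), and of the 19 paternally expressed genes on the right none is, with Nnat the lowest (-0.26).

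Asb4 encodes an ankyrin repeat protein with a SOCS box, which picks substrates for a ubiquitin ligase. Its level was 11.27, 11.19 and 11.26 in DKO 1 to 3, against 10.71, 10.63 and 10.73 in control 1 to 3. Every DKO array lay far above every control array. It rose by 0.55, with SE 0.05 and an interval of 0.43 to 0.67 (adjusted p = 0.00128). Asb4 stayed called under each of the 15 alternatives run, 6 of which left out 1 array, with changes of 0.52 to 0.57 and adjusted p of 4.23e-05 to 0.0113.

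The 250 bases before the annotated start of Asb4 are shown because it was the member that rose, beside those of Nnat, the member with the lowest change. Both are RefSeq sequence of GRCm38.p6, plus strand, 5′ to 3′, with each CpG in capitals. Asb4 (chr6:5383136-5383385) has a further start in the RefSeq table, which is not shown, and Nnat (chr2:157559828-157560077) has 1 start.
Asb4: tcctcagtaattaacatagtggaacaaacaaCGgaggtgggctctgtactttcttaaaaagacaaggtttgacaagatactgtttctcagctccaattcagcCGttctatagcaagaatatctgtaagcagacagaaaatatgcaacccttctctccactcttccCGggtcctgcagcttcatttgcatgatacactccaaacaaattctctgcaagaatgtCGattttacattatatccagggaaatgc
Nnat: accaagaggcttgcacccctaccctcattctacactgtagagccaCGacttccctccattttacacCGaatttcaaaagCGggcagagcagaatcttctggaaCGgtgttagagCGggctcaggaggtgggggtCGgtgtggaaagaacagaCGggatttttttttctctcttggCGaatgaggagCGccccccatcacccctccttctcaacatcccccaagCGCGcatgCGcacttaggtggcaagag
The Asb4 stretch held 4 CpG and 40.8% G or C, and the Nnat stretch 12 CpG and 54.8%. The median over 32851 such stretches in the table was 6 CpG, with quartiles of 2 and 16. The letters TGCCGC, the core of the motif bound by the imprint-protecting protein Zfp57 when it is methylated, were searched on both strands. They were in neither stretch, in the first listed promoter of 5 of 28 members (17.9%) and in 8.59% of the first listed promoters of all genes. These letters include a CpG, and the first listed promoters of the members held a median of 12.5 CpG, against 6 for all genes. The shares were not compared at equal CpG content.

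Asb4 was the only gene called among the 17 measured in and around its cluster on chromosome 6. Calcr, a further imprinted gene upstream and outside these 17, stood at -0.28 without passing (adjusted p = 0.088). All its DKO values lay below its control values. The cluster holds a pair of paternally expressed genes that start back to back, Peg10, a retrotransposon-derived gene needed in the placenta, and Sgce, which encodes epsilon-sarcoglycan. It also holds the maternally expressed Ppp1r9a, which encodes the actin-binding protein neurabin. Peg10 read 12.70, 12.86 and 12.76 in DKO, against 12.60, 12.60 and 12.63 in control. The DKO arrays all lay above the control arrays, but the change of 0.16 (SE 0.06, interval 0.04 to 0.29) did not pass (adjusted p = 0.224, and 0.0401 with array weights). Sgce read 10.68, 10.41 and 10.50 in DKO, against 10.42, 10.37 and 10.42 in control. Its groups overlapped, with DKO 1 the highest, and the change was 0.13 (SE 0.07, adjusted p = 0.537). Ppp1r9a differed by 0.04 (SE 0.07, adjusted p = 0.904).

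Neighbouring genes were placed by their order in RefSeq and were chosen after the members' values were known. Between Ppp1r9a and Asb4 lie the paraoxonase genes Pon1, Pon3 and Pon2, with changes of 0.03, 0.08 and 0.07, of which Pon3 and Pon2 are on the further list of imprinted genes. The next gene beyond Asb4, the pyruvate dehydrogenase kinase Pdk4, differed by 0.03. Of the 11 genes in and next to the cluster that are on neither imprinted list, 0 were called, with changes of -0.16 to 0.09. Across the 7 clusters with several measured genes, 60 such genes lay between the members or among the 5 measured genes on either side. Of these 60, limma called 0, and the changes ran from -0.29 to 0.21.

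**Figure D2:**
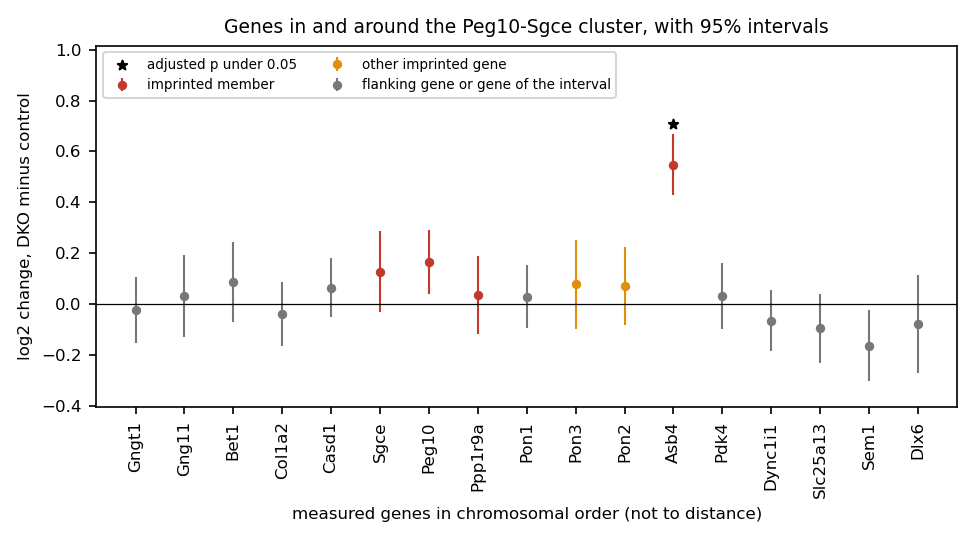
Change (log2, DKO minus control, with 95% confidence intervals) of the 17 measured genes in and around the Peg10-Sgce cluster, in chromosomal order but not spaced by distance. Asb4 stands at 0.55 and is the 1 gene marked as called, while the other 16 lie between -0.16 and 0.16.

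Asb4 is known from vessels and placenta among other sites, so endothelial markers were read beside it, from a list chosen after Asb4 was seen. Of 16 endothelial markers 14 were above 0, 0 were called, and the median change was 0.11, with Tek, the angiopoietin receptor, highest at 0.20. Their mean log2 level was 9.50 to 9.62 in the DKO arrays, against 9.44 to 9.50 in the control arrays. The part of these markers in the rise of Asb4 was not tested.

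Among paternally expressed members, Nnat had the lowest change and lay just outside the threshold. Nnat encodes neuronatin, a small membrane protein of the endoplasmic reticulum, and lies within an intron of Blcap. It read 11.94, 12.08 and 12.02 in DKO, against 12.29, 12.23 and 12.29 in control. All DKO arrays were below all control arrays. The change of -0.26 (SE 0.06, interval -0.38 to -0.13), or 1.19-fold lower, did not pass (adjusted p = 0.0526). It did pass without DKO 2 (adjusted p = 0.0187), with an intensity trend (0.00661), with array weights (0.00377) and without the dimmest 30% of genes (0.0295). Nnat is strongly expressed in neurons. Of 8 neural markers measured, 5 were above 0 and 3 below, with a median change of 0.04. Of the 8, 1 was called higher, the neuroblast gene Dcx (0.38, adjusted p = 0.00724), and 0 lower. The DKO values of Ret (-0.28, adjusted p = 0.130) and Sox10 (-0.20, adjusted p = 0.341), genes of the enteric nervous system and neural crest, all lay below the control values without passing. The mean log2 level of the 8 neural markers was 7.94 to 8.14 in DKO, against 7.92 to 8.09 in control. The part of these markers in the value of Nnat was not tested. Blcap, its host, differed by -0.01 (SE 0.06, adjusted p = 0.982).

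Of the 19 measured paternally expressed members, limma called 0. Array weights gave 3 calls among them, and 2003 over all 19938 genes. Before adjustment 6 of the 19 (31.6%) had p under 0.05, against 1 of the 15 maternally expressed members (6.67%) and 12.8% of all genes. The changes of the paternally expressed members ran from -0.26 for Nnat to 0.19 for Rtl1, with a median of 0.07, and 12 were above 0. Of the 15 maternally expressed members, 9 were above 0, with a median of 0.03. Besides Asb4 they ran from -0.17 for Zim1 to 0.10 for Igf2r. The difference between the 2 groups of members was not tested.

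**Figure D3:**
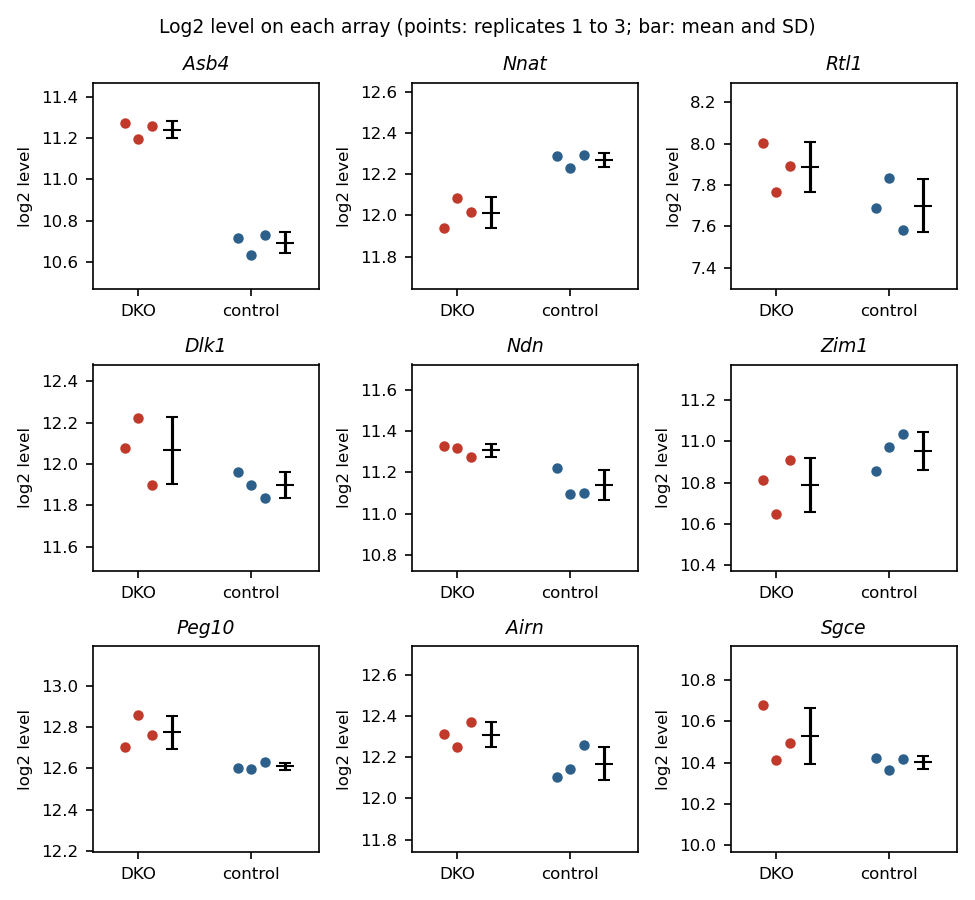
Log2 level on each array of Asb4 and of the 8 further members with the largest changes, DKO on the left and control on the right of each panel, with bars for the mean and SD (n = 3 each). Each panel spans the same range of log2 units. The groups are apart for Asb4, Nnat, Ndn and Peg10 and overlap for the other 5.

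The insulin-like growth factor genes carry the best known case of opposed parental control, in which paternal Igf2 promotes growth and maternal Igf2r and Grb10 hold it back. Igf2, the fetal growth factor, read 13.04, 13.12 and 13.07 in DKO, against 13.12, 13.08 and 13.04 in control. The groups overlapped fully, with DKO minus control being 0.00 (SE 0.05, with an interval of -0.12 to 0.11 and adjusted p = 0.987). Igf2r, the receptor that takes Igf2 to the lysosome, differed by 0.10 (SE 0.06, adjusted p = 0.538). Grb10, an adaptor that dampens insulin and IGF receptor signalling, differed by -0.09 (SE 0.05, adjusted p = 0.556), with all DKO values below all control values. Airn, the paternal long noncoding RNA that silences Igf2r on its own chromosome in the placenta and embryo, read 12.31, 12.25 and 12.37 in DKO, against 12.10, 12.14 and 12.26 in control. Its groups overlapped, and its change of 0.14 (SE 0.06, interval 0.00 to 0.28) did not pass (adjusted p = 0.368, and 0.0385 with array weights). Airn overlaps Igf2r on the opposite strand, and the sources used here do not say whether the values keep the strands apart.

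Outside the imprinted genes, the ligand Igf1 was lower. Igf1 read 9.87, 9.65 and 9.88 in DKO, against 10.34, 10.36 and 10.26 in control, so the groups were well apart. It fell 1.43-fold (change -0.52, SE 0.07, adjusted p = 0.007). It was the 1 gene called among 20 measured genes of the insulin-like growth factor pathway, with the receptor Igf1r at 0.14 (adjusted p = 0.272) and a median change of 0.00 over the list. Igf1 stayed called without each array in turn (adjusted p up to 0.0467).

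The Dlk1-Dio3 cluster on chromosome 12 held 5 measured members and none was called. Dlk1 encodes a membrane protein related to Notch ligands, Rtl1 a retrotransposon-derived protein of placental capillaries, and Dio3 a deiodinase that inactivates thyroid hormone. Meg3 and Rian are maternal noncoding RNAs, and Rian hosts small nucleolar RNAs. Dlk1 read 12.08, 12.22 and 11.90 in DKO, against 11.96, 11.90 and 11.84 in control, with a change of 0.17 (SE 0.08, adjusted p = 0.452). DKO 2 was the highest array, DKO 3 lay within the control range, and the groups overlapped. Rtl1 read 8.01, 7.77 and 7.89 in DKO, against 7.69, 7.83 and 7.58 in control, also with overlap (0.19, SE 0.08, adjusted p = 0.382). Meg3 differed by 0.07 (SE 0.05), Rian by -0.08 (SE 0.10) and Dio3 by 0.01 (SE 0.09).

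Dlk1 is abundant in fetal liver, and most liver markers were above their control level in the DKO arrays. Albumin (Alb) read 8.15, 8.77 and 7.96 in DKO, against 7.21, 7.52 and 7.27 in control, and rose by 0.96 (SE 0.18, adjusted p = 0.0294). Of 12 liver markers measured, 1 was called higher and 0 lower, 11 were above 0, and the mean level of the list was 7.17 to 7.43 in DKO, against 7.01 to 7.15 in control. The liver regulator Hnf4a stood at -0.08 (adjusted p = 0.831). Their part in the values of Dlk1 was not tested.

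Between Dlk1 and Dio3 lie 40 microRNA genes with a probe of their own, transcribed from the maternal copy along with Meg3 and Rian. They were examined after the members' values were seen. Of these, 3 were called higher and 0 lower (7.5%), against 0 higher and 2 lower of the 257 other microRNA genes measured (0.78%). Over all genes 2.41% were called, 1.03% higher and 1.38% lower. The median change was 0.06 over the 40, against 0.00 over the other 257. Of the 40, 27 were above 0, against 122 of the other 257. Some of the 40 had low levels, such as Mir376c (mean 4.18 in DKO and 4.19 in control) and Mir495 (4.47 and 4.41). The count of signs covers all 40, whatever their level, and genes transcribed together do not give independent signs. RNA was primed from poly(A) tails per the labels, so these probes read the hairpin region of longer transcripts and not the mature microRNA. The 5 mature sequences that the RefSeq table lists for the 3 called genes are shown (GRCm38.p6), with the seed, bases 2 to 8, in capitals.
mmu-miR-540-5p (chr12:109586085-109586107, plus strand): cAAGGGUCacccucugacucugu
mmu-miR-540-3p (chr12:109586122-109586141, plus strand): aGGUCAGAggucgauccugg
mmu-miR-341-5p (chr12:109611521-109611541, plus strand): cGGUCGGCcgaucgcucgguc
mmu-miR-341-3p (chr12:109611556-109611576, plus strand): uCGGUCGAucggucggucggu
mmu-miR-485-3p (chr12:109734946-109734967, plus strand): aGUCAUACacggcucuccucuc
These 5 sequences have 5 different seeds.

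Mir485 read 8.25, 8.41 and 7.98 in DKO, against 7.82, 7.65 and 7.62 in control, a change of 0.52 (SE 0.10, adjusted p = 0.0372). Mir540 read 9.44, 9.46 and 9.40 in DKO, against 9.05, 9.18 and 9.09 in control, a change of 0.33 (SE 0.05, adjusted p = 0.0145). Mir341 read 10.59, 10.58 and 10.56 in DKO, against 10.23, 10.39 and 10.26 in control, a change of 0.28 (SE 0.06, adjusted p = 0.0397). For all 3 the DKO arrays lay above the control arrays. The count of 3 became 0 without control 1 or without control 3, where the adjusted p of these genes was 0.0767 to 0.187. Mir485 also lost its call without control 2 (adjusted p = 0.159) and without DKO 1 (0.0989). Mir341 also lost its call without DKO 1 (0.0973), without DKO 3 (0.0984) and with the replicate number as a block (0.0679). Calls in the other direction appeared in 2 alternatives, with 6 higher and 3 lower under array weights, and 1 higher and 1 lower without DKO 1. Mir380, at -0.29 (adjusted p = 0.374), was the lowest of the 40.

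**Figure D4:**
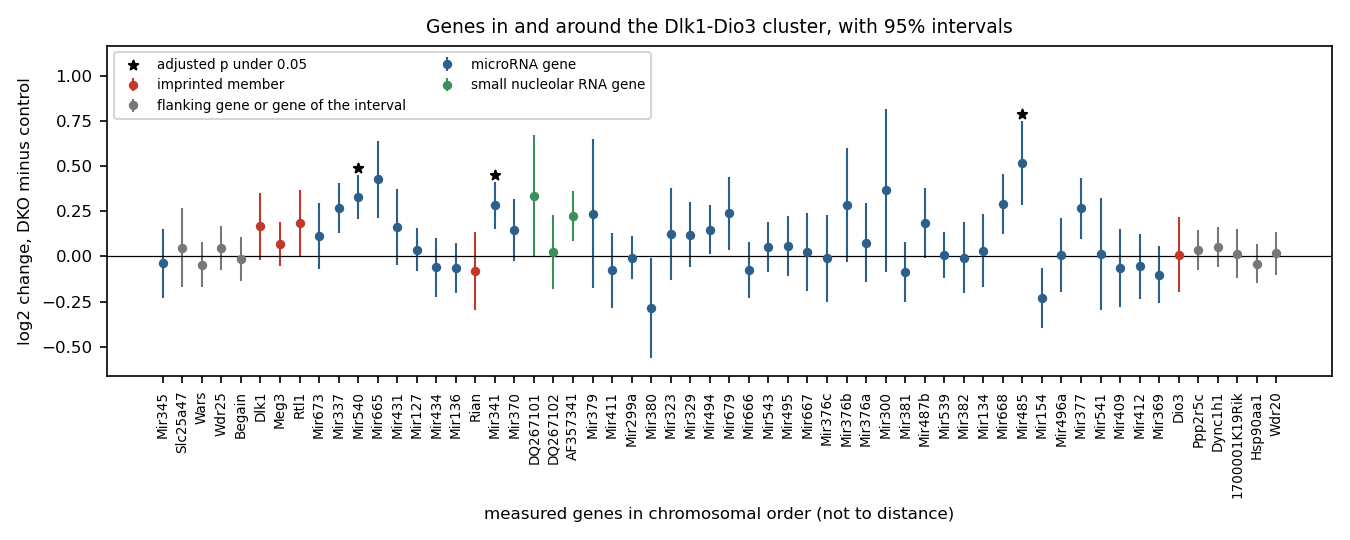
Change (log2, DKO minus control, with 95% confidence intervals) of the 58 measured genes in and around the Dlk1-Dio3 cluster, in chromosomal order but not spaced by distance. The 3 genes marked as called are Mir540 (0.33), Mir341 (0.28) and Mir485 (0.52), while the 5 imprinted members lie between -0.08 and 0.19.

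In the Snrpn cluster of chromosome 7, 4 paternally expressed members were measured and none was called. Ndn, which encodes the growth suppressor necdin, read 11.33, 11.32 and 11.27 in DKO, against 11.22, 11.10 and 11.10 in control. The groups did not overlap, and the change of 0.17 (SE 0.05, interval 0.04 to 0.29) did not pass (adjusted p = 0.205). Its relative Magel2, another MAGE family gene, differed by 0.08 and the makorin gene Mkrn3 by 0.10 (SE 0.06 each). Peg12, a Frat family gene of Wnt signalling, differed by -0.04 (SE 0.07).

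The 3 genes of the Peg3 cluster, also on chromosome 7, all had values below 0. Zim1, a maternally expressed zinc finger gene, read 10.81, 10.65 and 10.91 in DKO, against 10.86, 10.98 and 11.04 in control. DKO 3 lay above control 1, and the change was -0.17 (SE 0.08, adjusted p = 0.420). Usp29, which encodes a ubiquitin protease and is paternally expressed, read 6.91, 6.88 and 6.89 in DKO, against 7.01, 6.97 and 7.04 in control. Its groups were apart, but the change of -0.11 (SE 0.05, adjusted p = 0.371) did not pass. Peg3 itself, a paternal zinc finger gene, differed by -0.01 (interval -0.13 to 0.11).

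The Kcnq1 cluster, which lies next to Igf2 on chromosome 7, showed no called member among 6. All 6 are maternally expressed, several of them only in the placenta. Their changes ran from -0.10 for Tssc4 to 0.07 for the tetraspanin gene Cd81. Phlda2, which restrains placental growth, read 8.34, 8.40 and 8.38 in DKO, against 8.44, 8.34 and 8.34 in control, a change of 0.00 (interval -0.12 to 0.12). The potassium channel Kcnq1, the transporter Slc22a18 and the trophoblast factor Ascl2 differed by 0.03, 0.03 and 0.06. Tssc4 had all DKO values, 8.80, 8.88 and 8.78, below its control values of 8.93, 8.93 and 8.92 (adjusted p = 0.456).

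Of the members outside these clusters, none was called. Plagl1, a zinc finger regulator of other imprinted genes, differed by 0.07 (interval -0.04 to 0.19), and Mest, a mesoderm gene related to hydrolases, by -0.03 (interval -0.14 to 0.08). Copg2, a coatomer subunit gene beside Mest, differed by -0.10, the exchange factor gene Rasgrf1 by 0.11, Zdbf2 by 0.05 and Impact, a regulator of eIF2 alpha phosphorylation, by -0.04, with adjusted p of 0.496 to 0.858.

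Decorin (Dcn), a proteoglycan of connective tissue, was the most variable member. It read 10.34, 9.38 and 9.42 in DKO, against 9.78, 9.69 and 9.58 in control. DKO 1 was far above all other arrays, while DKO 2 and DKO 3 lay below the control arrays. The change was 0.03 (SE 0.22, interval -0.46 to 0.52), and without DKO 1 it was -0.28 (adjusted p = 0.106). The related proteoglycan gene Lum showed the same array apart, at 9.15, 8.22 and 8.07 in DKO, against 8.23, 8.18 and 8.04 in control. For the collagen genes Col1a1, Col1a2 and Col3a1, DKO 1 (10.98, 11.20 and 10.55) lay within the control range. Of 15 mesenchyme markers measured, Lum among them, 1 was called higher, the growth factor Fgf10 (1.05, adjusted p = 0.00236), and 0 lower. Their median change was -0.04, with 6 above 0 and 9 below.

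The balance between genes that share a cluster or oppose each other was measured for 6 pairs, since 2 of the 8 listed pairs lacked a measured gene. The measure was the difference between the log2 values of both genes on each array. Dlk1 minus Meg3 was 0.10 higher in DKO, Peg3 minus Zim1 0.16 higher, Mest minus Copg2 0.07 higher and Sgce minus Ppp1r9a 0.09 higher. Igf2 minus Igf2r differed by -0.10 and Igf2r minus Airn by -0.04. An exact two-sided permutation test of 3 arrays against 3 cannot give a p below 0.1, so no pair could have reached 0.05. The p values were 0.2 to 0.7 by that exact test (0.4 to 0.7 adjusted over the 6 pairs).

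Imprinted genes outside the member list, and the proteins that keep imprints, were read from lists made for the purpose. Of 29 further imprinted genes measured, 1 was called higher and 1 lower (6.9%), with a median change of -0.01. Over all genes 1.03% were called higher and 1.38% lower (2.41%). Ddc, the aromatic amino acid decarboxylase gene next to Grb10, read 8.98, 8.99 and 9.04 in DKO, against 8.63, 8.60 and 8.68 in control, and rose 1.29-fold (0.37, SE 0.05, adjusted p = 0.00714). Its groups were well apart and it stayed called without each array in turn. Gatm, a creatine synthesis gene imprinted in the placenta, read 8.80, 8.51 and 8.58 in DKO, against 9.12, 9.004 and 8.96 in control, and fell 1.32-fold (-0.40, SE 0.08, adjusted p = 0.0416). Gatm lost its call without control 1, 2 or 3 or DKO 3 (adjusted p = 0.108 to 0.187).

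Of 24 genes for setting or keeping imprints, limma called 0. Before adjustment 3 of them (12.5%) had p under 0.05, close to the 12.8% of all genes. Array weights gave 3 calls among them, and 2003 over all 19938 genes. The largest changes were -0.18 for Uhrf1, which brings the maintenance methyltransferase to replicated DNA (adjusted p = 0.294), and -0.16 for Mbd3, a subunit of the NuRD complex (adjusted p = 0.255). The maintenance methyltransferase Dnmt1 differed by 0.01 (SE 0.05), Dnmt3a by 0.00 and the imprint-protecting zinc finger gene Zfp57 by 0.09 (adjusted p = 0.470). The median over the 24 was -0.02.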

How the data were processed

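RNA from 6 lung bud samples was hybridised to Affymetrix MoGene 1.1 ST arrays. The deposited table holds 1 log2 value per probe and array (35556 probes). Per the submitters' processing notes the authors used oligo, RMA and limma, with no version given. RMA corrects background, equalises the arrays' distributions and summarises probes. The log base was taken from the method and the range, 3.42 to 14.27. Array medians were 7.87 to 7.89, so a change common to all genes cannot be seen. No genome build is given for the probes.

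Probes with 1 gene in the platform annotation were named through Entrez identifiers (GRCm38.p6 RefSeq table, 19856 of 19938 genes matched), and the probe with the highest mean was used for each gene. Probes with several genes (1621) or unnamed here (12146) were left out. limma 3.58.1 in R 4.3.3 (lmFit, eBayes, group as the only term, two-sided) was fitted to all 19938 genes and tested on simulated data. The number of arrays limits precision. The members, lists, neighbours and named genes were chosen with earlier results of these data known. The text gives every array for called members and the 8 others with the largest changes, and names from other lists up to 6 called genes, or the 2 with the largest changes where none was called. Further names were chosen after their values were seen. Among members and cell type markers they were Usp29, Phlda2, Tssc4, Dcn, Lum, Col1a1, Col1a2, Col3a1, Hnf4a, Ret, Sox10 and Tek. The others were the microRNA genes, Blcap, Igf1r, Dnmt1, Dnmt3a, Zfp57 and neighbours. Samples were grouped by title, and equal replicate numbers were not taken as pairs, since deviations of same-numbered arrays correlated at -0.06, 0.05 and 0.16. The alternatives were a replicate block, a trend, robust settings, array weights, other scalings, a filter, other probe rules and leaving out each array.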

Additional observations from a re-analysis of the deposited data

How the results depend on the processing

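With 3 arrays per group, single calls near the threshold depended on the settings, and the cause was not tested. The count over all genes was 481, and it became 725 with an intensity trend and 2003 with array weights, and 197 to 811 when 1 array was left out (811 without DKO 2, 317 without DKO 3, 215, 197 and 215 without control 1, 2 and 3). The count of members became 2 with the trend, 4 with array weights and 2 without the dimmest 30% of genes (1 to 2 leaving out 1 array). For paternally expressed members these counts were 1, 3 and 1 (0 to 1), and for insulin-like growth factor genes 2, 4 and 2 (1 to 2). The microRNA genes of the Dlk1-Dio3 cluster gave 6, 9 (6 higher, 3 lower) and 5 (0 to 4), a set of alternatives chosen after seeing the data. Array weights gave 6 further imprinted genes and 3 imprint regulators. Leaving out 1 array gave 1 to 3 further imprinted genes and -0.10 to 0.0238 for Igf2r minus Airn, above 0 without DKO 3 or control 1. Dcn was -0.17 with array weights and -0.28 to 0.20 leaving out 1 array. The median change of the members stayed between 0.02 and 0.06 in all 15 alternatives, and the filter kept 30 of the 34. The replicate block gave 406 genes and 1 member, and took the calls of Hdac1 and Mir341. Of 329 values for 22 named genes, 296 kept direction and side of the threshold, 21 lost a call, 9 gained one and 3 turned sign, all in Dcn.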

Other observations

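Cdkn1c, the maternally expressed inhibitor of cyclin-dependent kinases in the Kcnq1 cluster, was not among the listed members, and it is given here after its values were seen. It read 11.14, 11.22 and 11.09 in DKO, against 11.41, 11.45 and 11.29 in control, so all DKO arrays lay below all control arrays. The change of -0.23 (SE 0.06) did not pass (adjusted p = 0.106). It passed without DKO 2 (adjusted p = 0.0415), with an intensity trend (0.0249) and with array weights (0.00631). Tspan32, in the same cluster, was 0.25 higher (adjusted p = 0.112), and Calcr, upstream of the Peg10-Sgce genes, stood at -0.28 (adjusted p = 0.088).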
